A study of Mus musculus with 20 samples.

Results

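The 9 genes described here encode proteins of the slit diaphragm and foot process of the podocyte, the epithelial cell that covers the glomerular capillaries. They were chosen by name, by a rule that uses no measured value, with earlier results of these data known. Their symbols (Nphs1, Cd2ap, Magi2, Ddn, Plce1, Synpo, Actn4, Podxl and Ptpro) each matched 1 of the 34255 genes in the deposited count table, and each of the 9 passed the filter on low counts. Levels come from 3′ mRNA sequencing of 20 libraries made from kidneys of healthy, wild-type male C57BL6/OlaHsd mice, with 4 libraries in each of 5 groups and no treatment or engineered allele in any of them. From the renal cortex, glomeruli, arterioles, post-capillary venules and peritubular capillaries were isolated by laser microdissection (LMD), in which the structure is cut out of a cryosection under the microscope, and whole kidney sections were the reference. An LMD sample holds every cell type within the cut outline, so a glomerular sample contains podocytes together with endothelial, mesangial and parietal cells. Each library carries the name of its group and its column number in the deposited table (93, 96, 98 or 100), and values are given in that order. Nothing ties a library to a named mouse, and p-values therefore measure the spread between these samples.

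Podocytes extend interdigitating foot processes over the glomerular capillary wall, and the gaps between neighbouring processes are bridged by the slit diaphragm, a modified cell junction that forms part of the filtration barrier. Nephrin (Nphs1) is its main structural protein and is held in place by adaptors and scaffolds that connect it to the actin cytoskeleton of the foot process. The surface of the podocyte that faces the urinary space carries a negatively charged coat with podocalyxin as its major sialomucin. Inherited defects of several of these genes cause nephrotic syndrome or focal segmental glomerulosclerosis.

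Library totals ranged from 4639090 to 12283098 counts, and no 2 libraries held identical values. Levels are given as CPM, the share of a library's counts that a gene takes, multiplied by 1e+06, with the total scaled by edgeR's TMM factor. Because only reads near the 3′ end were sequenced, transcript length does not enter these values. The defining markers of the cut structures were in place for glomeruli, where the glomerular endothelial gene Ehd3 measured 1908 to 2743 CPM against 43.7 to 60.8 CPM in whole kidney, and for arterioles, where the smooth muscle gene Acta2 measured 7653 to 20820 CPM against 107 to 131 CPM. The arteriole libraries differed widely in Ehd3, at 462, 7.24, 8.21 and 207 CPM. In peritubular capillaries the endothelial gene Pecam1 measured 40.3 to 100.1 CPM, which overlapped the 55.4 to 77.3 CPM of whole kidney, while the summed level of 10 proximal tubule genes was higher, at 63878 to 118431 CPM against 35420 to 37008 CPM. In post-capillary venules Pecam1 measured 67.2 to 256 CPM, which also overlapped whole kidney. The same proximal tubule genes summed to 23250 to 29368 CPM there, below whole kidney but above the 5567 to 7729 CPM of glomeruli.

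Summed over the 9 genes, the level was 7023 ± 516 CPM (SD, n = 4) in glomeruli, 2625 ± 379 CPM in arterioles, 714 ± 105 CPM in post-capillary venules, 469 ± 114 CPM in peritubular capillaries and 459 ± 47.5 CPM in whole kidney. The 9 genes took 0.808% to 1.03% of all counts in the glomerular libraries and 0.0466% to 0.063% in whole kidney. In bulk samples such as these, more podocytes and more RNA per podocyte cannot be told apart. Behind the sum lay different distributions. Nphs1, Ddn, Ptpro and Magi2 were high in glomeruli and below the whole kidney level in arterioles. Only Magi2 was called lower there, and 28% of all genes had every arteriole library below every whole kidney library. Podxl, Synpo and Actn4 were high in both glomeruli and arterioles. Plce1 was high in glomeruli and in 3 of 4 arteriole libraries, and Cd2ap differed from whole kidney in no compartment by the test used.

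**Figure D1:**
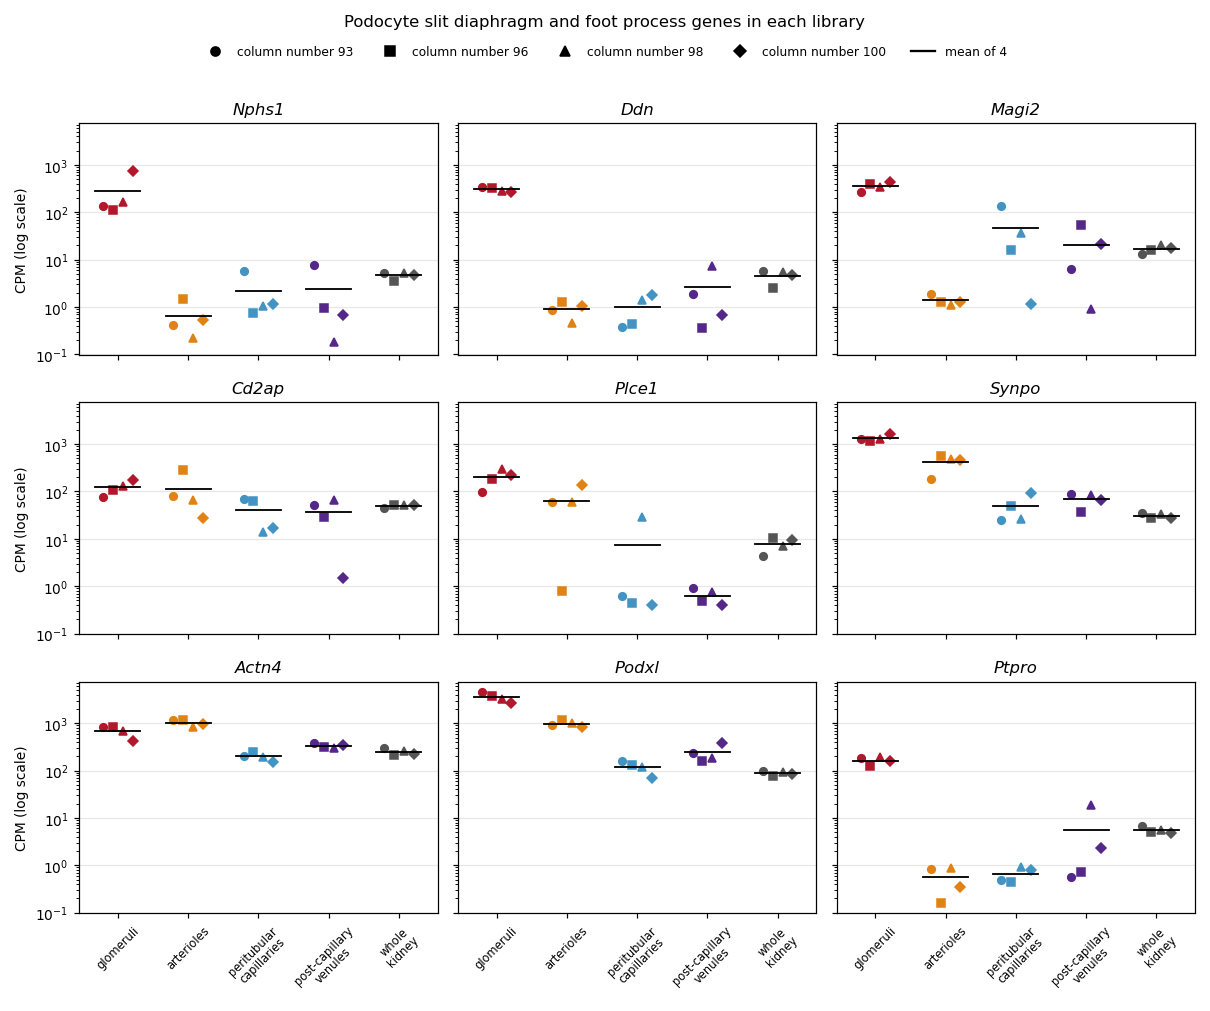
Level of each of the 9 genes in every library, in CPM on a log axis, by group; each symbol is 1 library (its shape gives the column number) and each black line is the mean of 4. The 4 glomerular libraries lie above the other 16 libraries for Nphs1, Ddn, Magi2, Synpo, Podxl and Ptpro, and arterioles hold a second high level of Synpo, Podxl and Actn4.

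The 5′ ends of 4 of these genes are shown because they represent the ends of this range: Nphs1 and Ptpro, with nearly all of their signal in glomeruli, and Actn4 and Cd2ap, with broad signal. The windows are RefSeq sequences of build GRCm38.p6 from 250 bases before to 50 bases after the annotated start, on the gene's own strand: chr7:30459808-30460107 (plus strand) for Nphs1, chr6:137252049-137252348 (plus strand) for Ptpro, chr7:28962283-28962582 (minus strand) for Actn4 and chr17:42876375-42876674 (minus strand) for Cd2ap. Capitals mark matches to GNGNGGGNG, the letters shared by binding sites of the Wt1 and Egr zinc finger proteins, on either strand.
Nphs1: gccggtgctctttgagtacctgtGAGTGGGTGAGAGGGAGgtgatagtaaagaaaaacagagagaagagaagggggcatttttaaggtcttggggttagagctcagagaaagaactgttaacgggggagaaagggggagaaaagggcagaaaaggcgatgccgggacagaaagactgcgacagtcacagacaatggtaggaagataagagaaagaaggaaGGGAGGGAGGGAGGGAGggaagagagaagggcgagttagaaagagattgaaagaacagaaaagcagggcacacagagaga
Ptpro: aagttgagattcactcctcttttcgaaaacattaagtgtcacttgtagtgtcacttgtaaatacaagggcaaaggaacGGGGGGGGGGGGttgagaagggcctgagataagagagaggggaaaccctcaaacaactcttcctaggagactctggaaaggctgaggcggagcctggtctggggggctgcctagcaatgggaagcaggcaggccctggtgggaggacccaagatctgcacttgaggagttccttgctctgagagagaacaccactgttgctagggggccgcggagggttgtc
Actn4: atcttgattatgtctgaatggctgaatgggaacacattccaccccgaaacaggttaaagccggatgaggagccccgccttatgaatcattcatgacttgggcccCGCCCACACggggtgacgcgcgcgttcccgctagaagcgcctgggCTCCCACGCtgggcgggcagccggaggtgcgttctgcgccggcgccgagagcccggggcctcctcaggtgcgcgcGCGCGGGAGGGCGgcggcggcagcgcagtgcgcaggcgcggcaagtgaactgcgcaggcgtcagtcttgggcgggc
Cd2ap: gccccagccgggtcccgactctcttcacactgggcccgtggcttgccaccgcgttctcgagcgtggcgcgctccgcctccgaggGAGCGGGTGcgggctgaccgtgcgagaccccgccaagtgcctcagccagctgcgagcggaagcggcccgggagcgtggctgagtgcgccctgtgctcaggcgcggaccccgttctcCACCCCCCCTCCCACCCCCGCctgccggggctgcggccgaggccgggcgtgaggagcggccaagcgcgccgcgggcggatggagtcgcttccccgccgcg
The Nphs1 window was 49.7% G or C with 6 CpG dinucleotides and the Ptpro window 54.7% with 5, close to the median of 52.7% over all 32851 windows of the table. The Actn4 and Cd2ap windows were richer, at 68% with 35 CpG and 77% with 41. The pattern did not hold for every gene with most of its signal in glomeruli. Magi2, with 80.9% of the sum of its 5 group means in glomeruli, has 2 annotated starts in the table, of which the first lay in a window of 69.3% G or C with 29 CpG and the second in one of 43% with 4. The Plce1 window was 41% with 8. Matches to GNGNGGGNG, some of them overlapping each other in runs of G, numbered 5 in Nphs1, 4 in Ptpro, 4 in Actn4 and 6 in Cd2ap, and 39.6% of all windows hold at least 1. RefSeq windows were matched for 6 of the 9 genes, and the window of Plce1 held none of these matches. Neither TAATTA, the core letters of many homeodomain sites, nor TGCTGA, the letters of a Maf half-site, was present on either strand of the 4 windows shown; 5.29% and 19.5% of all windows hold them. These are matches of letters and were not tested as binding sites.

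The first question was which of the genes stood above whole kidney in glomeruli. A gene was called higher where its log2 fold change exceeded 1 and its adjusted p (FDR, Benjamini-Hochberg over all genes tested by edgeR's quasi-likelihood test) was under 0.05. By this rule 8 of the 9 genes were called higher in glomeruli, and 1.59% of all 13813 genes tested were. The median log2 fold change of the 9 genes was 4.87 and that of all genes tested was 0.25. The 4 glomerular libraries lay above the 4 whole kidney libraries for each of the 9 genes, a pattern seen in 14.6% of all genes, and above all 16 other libraries for 6 of them (Nphs1, Ddn, Magi2, Synpo, Podxl and Ptpro), against 1.19% of all genes. Leaving out 1 library at a time reduced the number called to 5 or 6. Podxl, Synpo, Ddn and Magi2 were called in each of these 8 fits, whereas Ptpro and Plce1 were called in none of them. Each of these fits used 1 estimate of spread per gene for all groups. The spread within arterioles, peritubular capillaries and venules therefore also entered the SE and FDR. Fitted with the glomerular and whole kidney libraries alone, all 9 genes were called higher. Over all genes that fit called 1508 higher, against 219 in the fit over 20 libraries. Without the filter on low counts 6 were called, as Ptpro (FDR = 0.0677) and Actn4 (FDR = 0.0724) lost their calls.

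Markers of other glomerular cell types moved in the same comparison, in which 1.59% of all genes were called higher and 203 genes lower. Of 8 mesangial genes 6 were called higher in glomeruli, with a summed level of 1259 to 1578 CPM against 163 to 183 CPM in whole kidney. The list was not particular to glomeruli, as arterioles held 4798 to 8596 CPM, with 7 genes called higher than whole kidney (5.78% of all genes). Of 8 glomerular endothelial genes 4 were called higher, with 4997 to 5833 CPM against 1804 to 2208 CPM. Peritubular capillaries overlapped glomeruli in this sum, at 2408 to 5923 CPM. Of 6 parietal epithelial genes 1 was called higher, with 314 to 539 CPM against 99.5 to 114 CPM. Of 10 proximal tubule genes 8 were called lower, with 5567 to 7729 CPM against 35420 to 37008 CPM. The part of these differences in cell content in the values of the 9 genes was not tested.

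Among the proteins of the slit diaphragm itself, Nphs1 (ENSMUSG00000006649; GENCODE M21, GRCm38 chr7:30458315-30487223, plus strand), the gene of nephrin, measured 136, 114, 163 and 738 CPM in glomeruli and 5.16, 3.57, 5.35 and 4.72 CPM in whole kidney. Glomeruli 100 stood far above the other 3 glomerular libraries, which already exceeded every whole kidney library. The log2 fold change was 5.93 ± 1.19 (SE; FDR = 0.0018 by edgeR), and without glomeruli 100 it was 4.86 and no longer called (FDR = 0.0888). In arterioles Nphs1 was close to the limit of detection, with 0.426, 1.45, 0.225 and 0.535 CPM from 16 counts in all. Peritubular capillaries held 5.84, 0.737, 1.05 and 1.17 CPM and post-capillary venules 7.62, 0.972, 0.185 and 0.67 CPM. In each of these groups library 93 was several times higher than the others and the remaining 3 lay below every whole kidney library. The annotation places exons of the antisense transcript Nphs1os over exons of Nphs1, and its level was not analysed here.

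Ddn (chr15:98803777-98809490, minus strand) encodes dendrin, a cytoplasmic partner of nephrin that can move to the nucleus. It was the most even of the 9 genes among glomerular libraries, at 348, 331, 279 and 269.8 CPM, a coefficient of variation of 12.6%. Whole kidney held 5.67, 2.53, 5.41 and 4.72 CPM, and the log2 fold change was 6.06 ± 1.06 (FDR = 0.000356), the largest of the 9 in this comparison. Arterioles held 0.45 to 1.29 CPM, peritubular capillaries 0.373 to 1.76 CPM and venules 0.365 to 7.41 CPM. Of the sum of the 5 group means, 97.1% was in glomeruli, the largest share of the 9 genes. An antisense transcript that overlaps exons of Ddn, B130046B21Rik, was counted at 11.1 CPM in glomeruli 100 and 3.01 CPM in glomeruli 93 and at 0 in the other 2 glomerular libraries.

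Magi2 (chr5:19227036-20704792, plus strand) encodes a membrane-associated scaffold that binds nephrin. Its glomerular level was 267, 406, 344 and 434 CPM against 13, 15.9, 20.5 and 18 CPM in whole kidney (log2 fold change 4.43 ± 1.01, FDR = 0.0076). In arterioles the 4 libraries were close together at 1.92, 1.29, 1.12 and 1.25 CPM, below every whole kidney library, and Magi2 was called lower there (log2 fold change -3.59 ± 1, FDR = 0.0169), though not in the edgeR version 4 form (FDR = 0.0767). Peritubular capillaries ranged over 133, 16.4, 37 and 1.17 CPM and venules over 6.27, 52.7, 0.926 and 21.2 CPM. These 2 groups therefore spanned more than the whole kidney range on both sides.

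Plce1 (chr19:38481109-38785030, plus strand), the gene of phospholipase C epsilon, a signalling enzyme required for podocyte development, measured 99.4, 182, 292 and 227 CPM in glomeruli and 4.35, 10.4, 6.92 and 9.26 CPM in whole kidney (log2 fold change 4.69 ± 1.27, FDR = 0.0305). The call was lost without any 1 of the 8 libraries (FDR = 0.0504 to 0.126). These fits share 1 estimate of spread over all groups. The coefficient of variation was 40.5% in glomeruli and 34.5% in whole kidney, but 85.3% in arterioles and 187% in peritubular capillaries. Arterioles held 60.3, 0.805, 60.7 and 134 CPM. Arterioles 96 was thus far below the other 3 and below whole kidney, while the other 3 were above it, and the difference from whole kidney was not called (log2 fold change 3.05 ± 1.18, FDR = 0.0757). It was called without arterioles 96 (FDR = 0.0402). In venules Plce1 lay between 0.402 and 0.896 CPM, and in peritubular capillaries 3 libraries lay between 0.391 and 0.621 CPM and library 98 held 28.4 CPM.

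Cd2ap (chr17:42792951-42876665, minus strand) encodes the adaptor that links nephrin to actin and is made by many cell types. It measured 74.9, 106, 133 and 178 CPM in glomeruli and 44.8, 51.5, 52.4 and 52.8 CPM in whole kidney. The glomerular libraries were all higher, yet the difference was not called (log2 fold change 1.29 ± 0.88, FDR = 0.597) in the fit over 20 libraries. Fitted with the 8 glomerular and whole kidney libraries alone, the same difference was called (log2 fold change 1.18 ± 0.28, FDR = 0.0119). Over all genes that fit called 1508 higher, in place of 219. Arterioles overlapped glomeruli, at 78.9, 286, 65.4 and 28 CPM. Peritubular capillaries held 70, 62.2, 13.9 and 16.8 CPM and venules 52.6, 29.3, 65.6 and 1.47 CPM. No compartment was called different from whole kidney or from another compartment for this gene by the fits over 20 or 16 libraries.

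Of the genes that act on foot process actin, Synpo, the gene of synaptopodin, an actin-associated protein of foot processes and of neuronal spines, measured 1262, 1179.6, 1284 and 1619 CPM in glomeruli and 35, 27.9, 33.4 and 27.9 CPM in whole kidney (log2 fold change 5.43 ± 0.53, FDR = 6.39e-09). Arterioles held the second level, at 185, 558, 486 and 458 CPM, and every arteriole library exceeded every whole kidney, capillary and venule library (log2 fold change against whole kidney 3.76 ± 0.49, FDR = 8.25e-07). The 4 glomerular libraries were all above the 4 arteriole libraries, but that difference was not called (log2 fold change 1.67 ± 0.49, FDR = 0.0619). Venules held 36.7 to 88 CPM and peritubular capillaries 25.5 to 92.7 CPM.

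Actn4 (chr7:28893248-28962340, minus strand) encodes alpha-actinin-4, an actin cross-linking protein found in many cells, whose mutation causes focal segmental glomerulosclerosis. It was the only one of the 9 with its highest mean outside glomeruli. Arterioles held 1180.1, 1153, 827 and 986 CPM, glomeruli 829, 818, 673 and 419.8 CPM, and whole kidney 305, 216, 255 and 225 CPM. Actn4 was called higher than whole kidney in arterioles (log2 fold change 2.05 ± 0.37, FDR = 0.000167) and in glomeruli (1.45 ± 0.36, FDR = 0.0146), the latter losing its call without glomeruli 93 or 96 or whole kidney 96, 98 or 100 (FDR = 0.0647 to 0.0809). Glomeruli and arterioles overlapped and did not differ by the test (log2 fold change -0.60 ± 0.40, FDR = 0.455). Venules held 299 to 375 CPM and peritubular capillaries 153 to 244 CPM. An exon of Capn12 on the opposite strand overlaps the last 500 bases of Actn4 in the annotation. Capn12 itself was counted in 1 of 20 libraries only, at 0.0945 CPM, and how reads in the overlap were treated is not stated.

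On the apical surface, Podxl (chr6:31519488-31563981, minus strand), the gene of podocalyxin, had the highest level of the 9, at 4561, 3734, 3262 and 2671 CPM in glomeruli. Whole kidney held 96.9, 78.6, 92.7 and 83 CPM, and the log2 fold change of 5.34 ± 0.38 had the smallest FDR of the 9 (1.41e-12). Podocalyxin is also a sialomucin of vascular endothelium. Arterioles held 902, 1189.9, 1031 and 817 CPM (3.49 ± 0.35 against whole kidney, FDR = 3.53e-09) and venules 239.8, 162, 184 and 388 CPM (1.47 ± 0.33, FDR = 0.029). The venule call was lost without venules 93 (FDR = 0.0706), without venules 100 (FDR = 0.285) and without any 1 of the 4 whole kidney libraries (FDR = 0.12 to 0.179), and with RLE size factors (FDR = 0.0794). Peritubular capillaries, at 163, 129.9, 121 and 70.6 CPM, overlapped whole kidney. Between compartments, glomeruli were called above arterioles (log2 fold change 1.85 ± 0.36, FDR = 0.0015) and arterioles above venules (2.01 ± 0.36, FDR = 0.000445), while venules and peritubular capillaries were not separated (FDR = 0.259).

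Ptpro (chr6:137252319-137463233, plus strand) encodes a receptor tyrosine phosphatase of the podocyte, also known as GLEPP1. Glomeruli held 182, 123, 193 and 156 CPM and whole kidney 6.89, 4.95, 5.48 and 4.91 CPM. The log2 fold change of 4.87 ± 1.28 was called (FDR = 0.0237), but in none of the 8 fits without 1 library (FDR = 0.0623 to 0.1). These fits share 1 estimate of spread over all groups. The coefficient of variation was 19.1% in glomeruli and 16.6% in whole kidney, but 158% in venules. Arterioles, with 0.161 to 0.899 CPM from 15 counts in all, and peritubular capillaries, with 0.442 to 0.933 CPM from 19 counts, lay below every whole kidney library. Venules held 0.56, 0.729, 18.5 and 2.28 CPM, so that venules 98 lay above every whole kidney library and the other 3 below.

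**Figure D2:**
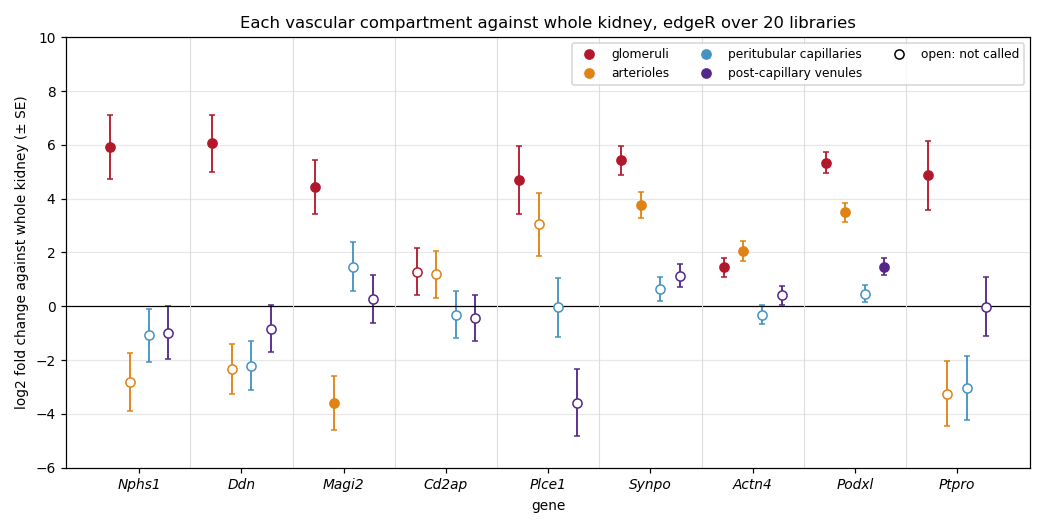
Log2 fold change of each gene in each compartment against whole kidney, with its SE, from the edgeR fit over 20 libraries; filled symbols passed both the FDR of 0.05 and a change of more than 1 in either direction. Glomeruli are called higher for 8 genes, arterioles higher for Podxl, Synpo and Actn4 and lower for Magi2, venules for Podxl, and peritubular capillaries for none.

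In arterioles 3 of the 9 genes were called higher than whole kidney (Podxl, Synpo and Actn4; 5.78% of all genes were called higher there) and 1 was called lower (Magi2; 5.5% of all genes). Nphs1 (log2 fold change -2.81 ± 1.07, FDR = 0.0708), Ptpro (-3.25 ± 1.21, FDR = 0.0675) and Ddn (-2.32 ± 0.92, FDR = 0.0828) were not called, although with Magi2 they were the 4 genes whose arteriole libraries all lay below all whole kidney libraries, as did 28% of all genes. DESeq2 called each of these 3 lower and Plce1 higher, for 8 genes called in all, and over all genes it called 1783 higher and 2041 lower. The edgeR version 4 form called none of the 9 lower (Magi2 FDR = 0.0767, Nphs1 0.31, Ptpro 0.274 and Ddn 0.31) and called Plce1 higher (FDR = 0.0138). Over all genes it called 2047 higher and 640 lower. In peritubular capillaries edgeR called 0 of the 9 genes in either direction (0.0941% of all genes were called). An unadjusted p under 0.05 was found for 2 (Ptpro and Ddn), and for 12.4% of all genes. DESeq2 called 1 (Ptpro, lower), and over all genes it called 51 higher and 390 lower. In venules 1 gene was called higher (Podxl; 0.203% of all genes).

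Compared directly with the other compartments, glomeruli were called higher than arterioles for 5 of the 9 genes (Nphs1, Ddn, Magi2, Ptpro and Podxl; 0.862% of all 12179 genes tested in the fit of the 16 LMD libraries, at FDR under 0.05), higher than peritubular capillaries for 7 (all but Magi2 and Cd2ap; 2.2% of all genes) and higher than venules for 6 (Nphs1, Ddn, Magi2, Plce1, Synpo and Podxl; 0.493%). For Ddn the ratio of mean CPM was 336 against arterioles, 309 against peritubular capillaries and 119 against venules. For Podxl the same ratios were 3.61, 29.4 and 14.6. Nphs1, Ddn and Podxl were called higher than each of the other 3 compartments, as were 0.148% of all genes. This count of 3 depended on the fit. The edgeR version 4 form and the fits of the compared libraries alone each gave 6 (these 3 with Magi2, Ptpro and Synpo), DESeq2 gave 5 (these 3 with Magi2 and Ptpro), and without glomeruli 100 it was 2 (Ddn and Podxl). The first 3 of these alternatives also called more genes over all. Against arterioles they called 220, 155 and 1218 genes higher in glomeruli, in place of 105. Against venules they called 168, 279 and 445, in place of 60. The calls of Nphs1 against peritubular capillaries and against venules were lost without glomeruli 100 (FDR = 0.0698 and 0.183), that of Plce1 against peritubular capillaries was lost in 6 of 8 fits without 1 library (FDR up to 0.102; kept without glomeruli 93 or capillaries 98), and that of Magi2 against venules in 7 of 8 (FDR up to 0.146; kept without venules 96) and with RLE size factors (FDR = 0.0629). In the opposite direction, Magi2 was called above peritubular capillaries without capillaries 93 (FDR = 0.0298 in place of 0.0859) and Ptpro above venules without venules 98 (FDR = 0.0378 in place of 0.0883). Against the other 3 compartments averaged as log values, with at least 10 CPM in all 4 glomerular libraries, 7 of the 9 genes were glomerular markers (1.48% of all genes), and Actn4 (log2 fold change 0.74 ± 0.31, FDR = 0.222) and Cd2ap (1.14 ± 0.75, FDR = 0.55) were not.

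Among the remaining compartments, arterioles were called above peritubular capillaries for 3 of the 9 genes (Podxl, Synpo and Actn4; 6.22% of all genes) and below them for Magi2 (4.98%), the latter not in the fit of these 8 libraries alone (FDR = 0.158). They were called above venules for 4 (the same 3 and Plce1; 2.5% of all genes) and below them for Magi2 (1.87%). The call of Magi2 against venules was lost without arterioles 96 or 98 or venules 96 or 100 (FDR up to 0.14), with RLE size factors (FDR = 0.0529), in the edgeR version 4 form (FDR = 0.118) and in the fit of these 8 libraries alone (FDR = 0.355), and that of Actn4 without venules 96 or 98 (FDR up to 0.0585). Plce1 was called above peritubular capillaries without arterioles 96 or capillaries 98 (FDR down to 0.00233, in place of 0.0978). Peritubular capillaries and venules were called different for 0 of the 9 genes by edgeR (0.411% of all genes). An unadjusted p under 0.05 was found for 3, and for 11.2% of all genes. DESeq2 called 1 of the 9, and over all genes it called 226 higher and 525 lower in peritubular capillaries.

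Markers of other cell types were also high in the arteriole samples. Summed over 10 pan-endothelial genes, arterioles held 2936 to 5255 CPM, glomeruli 1395 to 1607 CPM and whole kidney 209 to 246 CPM. Summed over 7 smooth muscle genes, arterioles held 18487 to 45466 CPM, glomeruli 702 to 1381 CPM and whole kidney 263 to 314 CPM. Erythrocyte genes were likewise higher in arterioles, glomeruli and venules than in whole kidney, with 4 or 5 of 5 genes called higher in each. The shares of all genes called higher were 5.78%, 1.59% and 0.203%. No gene of these 3 lists was at 0 in all libraries of a group. The part that endothelial and smooth muscle cells had in the arteriole levels of Podxl, Synpo and Actn4 was not tested.

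**Figure D3:**
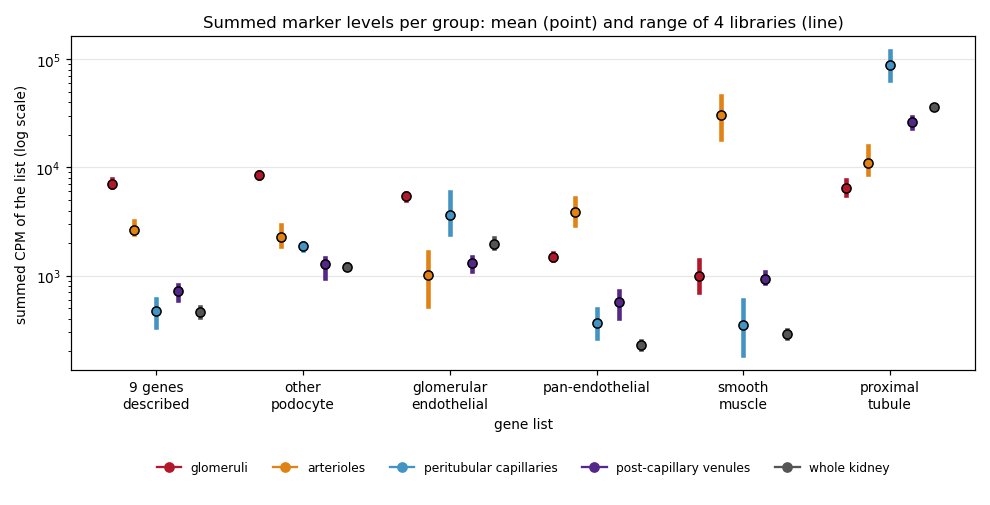
Summed CPM (log axis) of the 9 genes and of 5 lists of cell type markers in each group; points are means of 4 libraries and lines span their lowest and highest value. The 9 genes and the other podocyte genes are highest in glomeruli, pan-endothelial and smooth muscle genes in arterioles, and proximal tubule genes in peritubular capillaries.

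Within glomeruli the genes did not rise and fall together from library to library. Glomeruli 100 was the highest of the 4 for Nphs1, Cd2ap, Magi2 and Synpo, with 2.56, 1.45, 1.2 and 1.21 times the gene's glomerular mean. The same library was the lowest for Podxl, Ddn and Actn4, with 0.751, 0.878 and 0.613 times the mean. The coefficient of variation was 105% for Nphs1 and lay between 12.6% and 40.5% for the other 8 genes. Sums varied little, from 6623 to 7759 CPM for the 9 genes and from 8033 to 9106 CPM for the 28 other podocyte genes. Single genes of the 28 differed in spread, as Thsd7a ranged from 371 to 1347 CPM and Mapt from 914 to 1329 CPM.

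**Figure D4:**
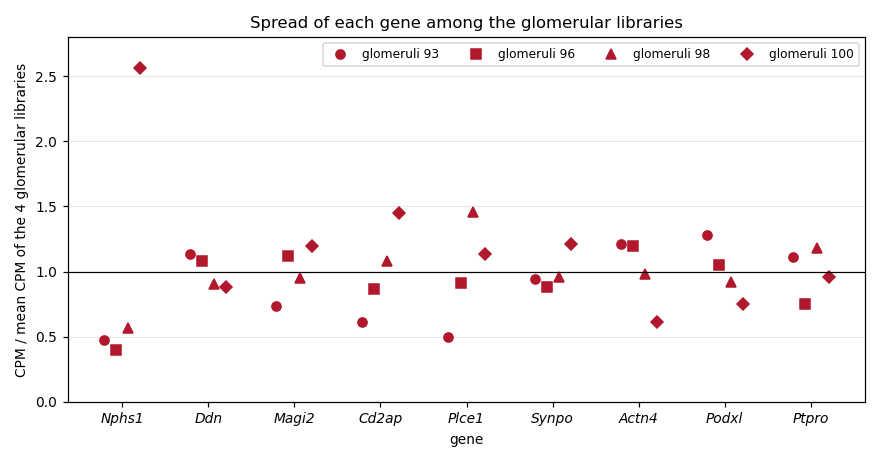
CPM of each gene in each of the 4 glomerular libraries divided by the gene's mean over them (linear axis from 0; the line is at 1). Glomeruli 100 reaches 2.56 for Nphs1 and 0.613 for Actn4, and the remaining points lie between 0.396 and 1.46.

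A list of 44 other slit diaphragm and foot process genes set these 9 in context. Of its 41 genes tested by edgeR, 15 were called higher in glomeruli than in whole kidney and 0 lower (0 lower at an unadjusted p under 0.05). Over all genes 1.59% were called higher. The median log2 fold change of the 41 was 2.10. DESeq2 called 0 lower, with 1 lower at an unadjusted p under 0.05. Fitted with the glomerular and whole kidney libraries alone, 27 were called higher and 1 lower. Over all genes that fit also called more, 1508 higher and 1319 lower in place of 219 and 203. Among the 15 called by edgeR over 20 libraries, those with the smallest p included Slc9a3r2, Itgb1, Tln1, Myh9 and Dag1. These 5 had high levels in arterioles too. Slc9a3r2, whose product ties podocalyxin to the actin cytoskeleton, held 507 ± 76.4 CPM in glomeruli, 654 ± 344 CPM in arterioles and 40.2 ± 6.79 CPM in whole kidney (SD, n = 4; log2 fold change of glomeruli against whole kidney 3.65 ± 0.60, FDR = 0.000144). The adhesion and cytoskeleton genes Itgb1 (integrin beta 1), Tln1 (talin), Myh9 (non-muscle myosin) and Dag1 (dystroglycan) held 628 to 860 CPM in glomeruli and 525 to 1661 CPM in arterioles as group means, against 112 to 181 CPM in whole kidney. In arterioles 18 of the 41 genes were called higher than whole kidney and 4 lower (Rhpn1, Ezr and Arhgap24 among them). Over all genes 5.78% were called higher there and 5.5% lower. Without glomeruli 96, 9 of the list were called in glomeruli.

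Of 28 other podocyte genes, 13 were called higher in glomeruli than in whole kidney by edgeR and 0 lower (again 0 at an unadjusted p under 0.05 and 0 by DESeq2), with a median log2 fold change of 3.37. Clic3, a chloride channel family member, held 452 ± 169 CPM (SD, n = 4) in glomeruli, 6.45 ± 2.22 CPM in whole kidney and 0.86 ± 0.436 CPM in arterioles. Cdkn1c, a cell cycle inhibitor kept on in mature podocytes, followed the same order at 737 ± 131, 29.2 ± 5.57 and 5.52 ± 6 CPM. Sema3g, which encodes a secreted semaphorin, was instead high in both glomeruli and arterioles, at 947 ± 231 and 795 ± 286 CPM against 20.6 ± 1.59 CPM in whole kidney. Nes (nestin) and Thsd7a lay between these cases, with 733 ± 202 and 764 ± 415 CPM in glomeruli and 156 ± 29.1 and 84.2 ± 67.5 CPM in arterioles. Mapt, the gene of tau, was higher in glomeruli (1108 ± 174 CPM) than in peritubular capillaries (532 ± 91.4 CPM), whole kidney (232 ± 21.2 CPM) and arterioles (71.8 ± 50.5 CPM). In arterioles 5 of the 28 were called higher and 6 lower (5.78% and 5.5% of all genes). In glomeruli the share of all genes called higher was 1.59%. Without any 1 whole kidney library, 7 of the list were called in glomeruli.

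**Figure D5:**
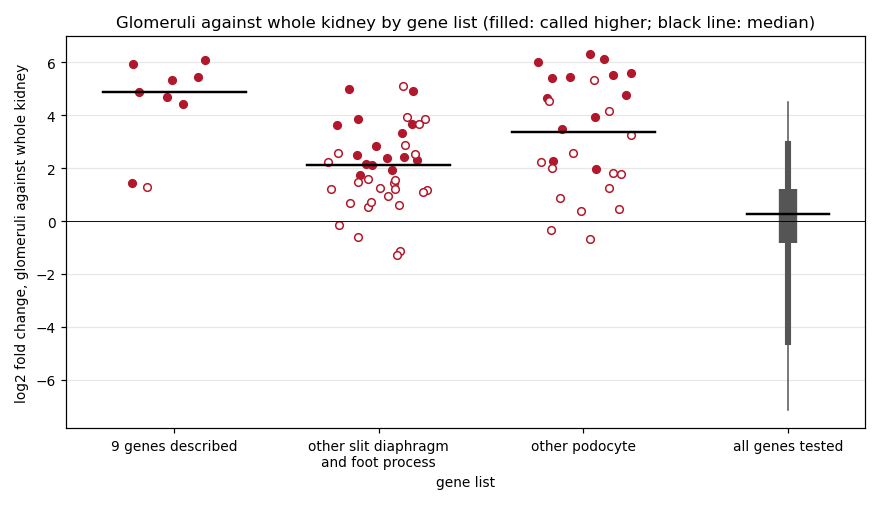
Log2 fold change, glomeruli against whole kidney, of the 9 genes, of 41 other slit diaphragm and foot process genes and of 28 other podocyte genes; filled points were called higher and black lines are medians. For all 13813 genes the thick, middle and thin bars span the 25th to 75th, 5th to 95th and 1st to 99th percentiles, from -7.15 to 4.47 at the widest, and 6 of the 9 genes lie above 4.47.

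The 10 genes whose pattern was most like the mean of the 9 (smallest mean absolute difference of log2 CPM, each gene centred on its own mean, over 20 libraries) were Usp13, Ptchd4, Gata5, AA672651, Tox2, Mrgprf, Dync1i1, Gabrb1, Tmem54 and Lctl, at a mean difference of 0.57 to 0.80. Over the 16 LMD libraries alone, 4 of them (Usp13, Ptchd4, Gata5 and Dync1i1) were again among the nearest 10. These were genes of low level. Their mean in glomeruli lay between 5.77 CPM (Lctl) and 36.5 CPM (Tmem54), and in whole kidney between 0.0472 CPM (AA672651) and 1.02 CPM (Usp13). Their FDR in the comparison of glomeruli with whole kidney was 0.0644 (AA672651) to 0.576 (Lctl) by edgeR. The 9 genes themselves lay at 0.97 (Podxl, 53rd nearest of the 13813 genes) to 1.76 (Plce1, 2553rd) from their own mean pattern.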

How the data were processed

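RNA from laser-microdissected compartments and whole kidney sections was made into QuantSeq 3′ mRNA libraries. Arterioles, glomeruli and venules were picked on hematoxylin-stained slides and peritubular capillaries on an isolectin B4 slide. LMD libraries, but not whole kidney libraries, were prepared by the low-input version of the protocol, with more cycles of PCR, so preparation and tissue cannot be told apart in any comparison with whole kidney. The authors used bbduk for trimming, STAR for alignment to GRCm38.p6 and htseq-count for counting per gene, and deposited raw read counts. Their processing notes also name GRCm39 and featureCounts without a role. The sources used here do not state whether counting used the strand or molecular identifiers. Without strand, a read in exons shared by a gene and an overlapping antisense gene cannot be assigned by position. How such reads were treated is not stated.

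Of 168 value columns, 20 were used and 148 were not. Lines without a gene (3) were left out. Counts were fitted in R 4.3.3 with edgeR 4.0.16 (TMM, filterByExpr, quasi-likelihood test in its version 3 form): 20 libraries and 13813 genes against whole kidney, and 16 libraries and 12179 genes between compartments. Each SE is the log2 fold change divided by the square root of its F statistic. CPM use the total scaled by the TMM factor, and log2 CPM a prior count of 2. The fits were also run on simulated counts with known changes, and no outcome of that run is used here. The 9 genes, the lists and the tests were chosen with earlier results of these data known. From the other lists, the text names up to 6 called genes with the smallest p, and the 10 nearest patterns pass over predicted genes and pseudogenes. Some items are not reported here. Alternatives were DESeq2 1.42.0, RLE factors, no filter, the edgeR version 4 form, fitting the compared groups alone, a replicate block and leaving out each library. Counts limit precision at low levels: 1 read is worth 0.0685 CPM (whole kidney 98) to 0.213 CPM (arterioles 93).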

Additional observations from a re-analysis of the deposited data

Results flagged for a closer look

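Of the 45 sets of 4 libraries (9 genes in 5 groups), 6 held a library set apart from the other 3 by a gap that exceeds Dixon's critical value. For normally distributed values chance gives this in about 1 set in 20. The rule was applied to CPM on a linear scale, some from few reads, so that rate need not hold here. Nphs1 measured 738 CPM (6694 counts) in glomeruli 100 against 114 to 163 CPM in the other glomerular libraries. Nphs1 also stood out in peritubular capillaries 93, at 5.84 CPM against 0.737 to 1.17 CPM, and in post-capillary venules 93, at 7.62 CPM against 0.185 to 0.972 CPM. Ptpro measured 18.5 CPM (100 counts) in post-capillary venules 98 against 0.56 to 2.28 CPM. Plce1 measured 28.4 CPM (244 counts) in peritubular capillaries 98 against 0.391 to 0.621 CPM. Cd2ap was lowest in whole kidney 93, at 44.8 CPM against 51.5 to 52.8 CPM. What set these libraries apart was not tested.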

How the results depend on the processing

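In comparisons of glomeruli with whole kidney, the count of the 9 genes called was 8 and stayed between 6 and 9 with all libraries, and was 5 to 6 with 1 library left out. For arterioles against whole kidney (4 called) DESeq2 called 8 and the fit of the 8 compared libraries 7, and without 1 library 4 to 5 were called. Over all genes the fit over 20 libraries called 798 higher and 760 lower. DESeq2 called 1783 and 2041, and the fit of the compared libraries 1125 and 2424. The edgeR version 4 form also called 4, with Plce1 (FDR = 0.0138) in and Magi2 (FDR = 0.0767) out, so that no gene was lower. For peritubular capillaries against whole kidney DESeq2 and the fit of the compared libraries each called 1 in place of 0. Over all genes DESeq2 called 51 higher and 390 lower and the other fit 314 and 1066, in place of 12 and 1. For venules against whole kidney RLE factors called 0 in place of 1, as did 6 of the 8 fits without 1 library (0 to 1). For arterioles against venules (5 called) the fit of the compared libraries called 3, and 3 to 5 were called without 1 library. Over all genes the fit of the compared libraries called 201 higher and 57 lower, in place of 305 and 228. For peritubular capillaries against venules DESeq2 called 1 in place of 0. The count called above each of the other 3 compartments in glomeruli (3) was 6 in the edgeR version 4 form, 5 with DESeq2, 6 in the fits of the compared libraries and 2 to 3 with 1 glomerular library left out. The other slit diaphragm and foot process genes called in glomeruli went from 15, all higher, to 28 (27 higher and 1 lower) in the fit of the compared libraries. The other podocyte genes went from 13 to 23 in that fit, all higher. Over all genes it called 1508 higher and 1319 lower, in place of 219 and 203. With 1 library left out, 9 to 11 and 7 to 11 of the 2 lists were called. The cause of these differences was not tested. The counts of the 7 glomerular markers, of glomeruli against each single compartment and of arterioles against peritubular capillaries stayed within 1.5 times.

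Fold changes that turned direction were all of uncalled differences, and several were large. Plce1 in peritubular capillaries against venules (3.52) was -0.36 to 3.92 without 1 library, Nphs1 in arterioles against venules (-1.84) was -2.58 to 0.07, and Magi2 in peritubular capillaries against venules (1.2) was -0.17 to 2.30. Plce1 in peritubular capillaries against whole kidney (-0.04) was 0.17 in the edgeR version 4 form and -3.95 to 0.35 without 1 library. Ptpro in venules against whole kidney (-0.02) was 0.033 with RLE factors, 0.0003 without a filter, 0.025 with DESeq2 and -2.22 to 0.36 without 1 library. Magi2 in venules against whole kidney (0.27) was -0.83 to 0.67 without 1 library. Cd2ap in glomeruli against arterioles (0.10) was -0.34 with RLE factors, -0.34 with DESeq2 and -0.22 to 1.05 without 1 library. RLE factors moved the median of all genes by -0.28 in glomeruli against arterioles, by 0.17 to 0.24 in the arteriole comparisons and by -0.13 in the marker comparison. They moved the share of called genes that were higher from 39.3% to 27.7% in glomeruli against arterioles, from 57.2% to 69.8% in arterioles against venules and from 20% to 6.67% in peritubular capillaries against venules.

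With the number in the column names as a replicate block, 8 genes were called in glomeruli against whole kidney and 4 in arterioles against whole kidney, as without it. It called 4 in place of 5 in arterioles against venules, Magi2 losing its call (FDR = 0.0536). The block moved the median log2 fold change of the genes tested between compartments by -0.80 in arterioles against whole kidney. In glomeruli against arterioles the shift was 0.65, and in arterioles against venules -0.50. In each of these comparisons the median turned direction, and the shift was larger than with RLE factors. Deviations of same-numbered libraries from their group means correlated at -0.0456 to 0.0626 (40 pairs, none over 0.1). Those of differently numbered libraries correlated at -0.0908 to 0.0406 (120 pairs). Each deviation also holds the noise of its own library, so these values cannot show whether same-numbered libraries share a mouse.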
